A study of Homo sapiens with 18 samples.

Results

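The genes described here encode 10 receptor chains that bind or transmit interferons, cytokines of the interleukin-6 (IL-6) family and interleukin-1 (IL-1). They were taken by name as chains of these receptors, with earlier results of these data known. They are 10 of 28100 genes in the count table: IFNGR1, IFNGR2, IFNAR1, IFNAR2, IL6R, IL6ST, OSMR, LIFR, IL1R1 and IL1RAP. Their RNA was measured by sequencing of polyadenylated RNA in LNCaP, an androgen-responsive human prostate cancer cell line, after 48 h in one of 6 media, with 3 libraries for each. The question is which macrophage cytokines the cancer cells have receptors for, and how the RNA of those receptors changes when the cells meet macrophage products.

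All cells were wild type and were first held in medium with 1% serum. In 5 of the groups they then received medium conditioned by macrophages derived from THP-1, a human monocytic leukaemia line, diluted 1:4 in RPMI with 10% heat-inactivated serum. These groups are M1 medium with IKK16, an inhibitor of the IκB kinases, at 0.7 μmol/l, M1 medium with an equal amount of its solvent DMSO, M1 medium alone, M2 medium (from macrophages polarised to M2) and M0 medium (from unpolarised macrophages). The control group had the RPMI with 10% heat-inactivated serum, without conditioned medium and without DMSO. Cytokine levels in the conditioned media were not analysed here. The labels number the replicates without saying that they are separate cultures, so p-values measure only the spread between these libraries, which may be technical.

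Interferon gamma binds IFNGR1, and IFNGR2 joins it to start signalling. Type I interferons (interferon alpha and beta) use IFNAR1 and IFNAR2. Cytokines of the IL-6 family share the signalling chain IL6ST (gp130): IL6R binds IL-6, OSMR pairs with IL6ST for oncostatin M, and LIFR pairs with it for leukaemia inhibitory factor and also for oncostatin M. These receptors have no enzyme of their own and signal through JAK kinases and STAT transcription factors. IL-1 binds IL1R1, which recruits IL1RAP and the adaptor MYD88 and leads to NF-kB, the factor that IκB kinases release into the nucleus. In prostate cancer cells, IL-6 and IL-1 are known for their effects on androgen receptor signalling and growth.

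On GRCh38.p14 some of the receptor genes share a chromosome. On chromosome 21, IFNAR2 spans 33229938 to 33265664, IFNAR1 spans 33324395 to 33359864 and IFNGR2 spans 33402882 to 33437516. On chromosome 5, LIFR spans 38474668 to 38608403, OSMR spans 38846012 to 38945579 and IL6ST spans 55935095 to 55994963. IFNGR1 lies on chromosome 6 (137197484 to 137219385), IL6R on chromosome 1 (154405343 to 154469450), IL1R1 on chromosome 2 (102070390 to 102179874) and IL1RAP on chromosome 3 (190514085 to 190659750). RefSeq lists one or more promoter windows for a gene, each at a transcript start. For the 5 genes that differed by at least 2-fold between M1 and control medium, the 250 bases before the listed start nearest to that of the transcript counted are shown 5′ to 3′ on the gene's own strand, because these are the receptor genes whose RNA moved most. They are RefSeq sequences of GRCh38.p14, at chr6:137219386-137219635 (minus strand, IFNGR1), chr21:33403163-33403412 (plus strand, IFNGR2), chr5:55994964-55995213 (minus strand, IL6ST), chr5:38845762-38846011 (plus strand, OSMR) and chr2:102142496-102142745 (plus strand, IL1R1). For IFNGR2 and IL1R1 this start lies inside the gene span given above, downstream of its first base. Capitals mark matches to the kappaB consensus, the motif that NF-kB binds.
IFNGR1: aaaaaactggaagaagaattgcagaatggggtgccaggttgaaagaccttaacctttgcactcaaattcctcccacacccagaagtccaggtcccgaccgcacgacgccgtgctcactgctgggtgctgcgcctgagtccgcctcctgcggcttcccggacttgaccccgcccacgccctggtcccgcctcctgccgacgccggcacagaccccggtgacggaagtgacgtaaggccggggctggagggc
IFNGR2: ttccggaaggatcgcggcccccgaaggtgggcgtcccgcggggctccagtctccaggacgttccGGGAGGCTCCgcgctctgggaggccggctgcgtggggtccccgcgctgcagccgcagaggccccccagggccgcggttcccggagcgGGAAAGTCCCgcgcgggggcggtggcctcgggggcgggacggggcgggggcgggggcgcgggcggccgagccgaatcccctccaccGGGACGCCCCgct
IL6ST: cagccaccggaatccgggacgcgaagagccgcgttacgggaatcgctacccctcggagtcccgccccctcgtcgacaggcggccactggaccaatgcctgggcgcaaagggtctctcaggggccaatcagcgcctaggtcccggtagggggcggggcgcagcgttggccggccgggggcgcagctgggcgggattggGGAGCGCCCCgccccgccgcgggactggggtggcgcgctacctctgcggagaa
OSMR: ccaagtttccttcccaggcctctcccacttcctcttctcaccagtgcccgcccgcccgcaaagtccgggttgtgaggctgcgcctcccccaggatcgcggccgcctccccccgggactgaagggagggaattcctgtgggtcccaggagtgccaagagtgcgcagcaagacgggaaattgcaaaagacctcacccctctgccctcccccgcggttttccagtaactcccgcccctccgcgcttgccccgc
IL1R1: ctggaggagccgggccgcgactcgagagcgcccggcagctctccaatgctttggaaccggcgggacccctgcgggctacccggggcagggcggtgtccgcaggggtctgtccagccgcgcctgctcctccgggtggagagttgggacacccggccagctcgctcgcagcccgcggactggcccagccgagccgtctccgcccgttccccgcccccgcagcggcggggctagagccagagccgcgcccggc
Motifs were searched on both strands of the 300-base window that adds the 50 bases after that start. The windows shown held 3 kappaB matches for IFNGR2 and 1 for IL6ST, and none for IFNGR1, OSMR and IL1R1. IFNGR1 has 2 listed windows that overlap, and the other one held a kappaB match. Of 35116 RefSeq promoter windows of this length, 11.3% held at least 1 kappaB match. The STAT motif TTCNNNGAA was in none of the 5 windows shown and in 7.66% of all windows, but it was in 1 of the other windows of IL1R1, which has 4 in all. In turn, the interferon response core (GAAANNGAAA) was in none of the 5 and in 3.57% of all windows. A match is a run of letters, not a bound site.

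Libraries held 24202741.5 to 33814818 gene counts, and every receptor chain passed the filter on low counts. A gene without a count in a library can have up to 0.0887 to 0.124 CPM (counts-per-million, scaled between libraries), the worth of 3 counts. Floors cover counting error only, while the edgeR intervals also hold the spread between these libraries. The defining markers of luminal prostate cells were present: all 10 on the list exceeded 1 CPM in each group, and their summed level was 2600 to 2711 CPM in M1 medium against 8373 to 8782 CPM in control medium. Of 12 leukocyte markers, 9 were under 1 CPM in M1 medium and 10 in control medium. PTPRC, which marks leukocytes in general, and TYROBP had 0 CPM in M1 medium, and CD14 had 0.0211 CPM. The exceptions were CSF1R at 196 CPM in M1 medium and 224 CPM in control medium, CD68 at 36.9 and 4.93 CPM, and LYZ at 2.29 and 0.0455 CPM. Without CSF1R, the leukocyte list summed to 37.9 to 44.0 CPM in M1 medium and 5.62 to 6.70 CPM in control medium. Of the leukocyte markers, 6 were tested: CD68, LYZ and LAPTM5 (0.795 CPM in M1 medium and 0.0228 CPM in control medium) were higher in M1 medium, and CSF1R and SPI1 (0.131 and 0.521 CPM) were lower. Of the 10 luminal markers, 3 were higher and 6 lower, among them KLK3, which had 154 CPM in M1 medium against 3714 CPM in control medium. Markers of fibroblasts and endothelium summed to 37.8 to 46.1 CPM in M1 medium and 42.6 to 43.5 CPM in control medium. The 3 of these 7 markers that were tested all changed, COL1A1 to higher levels (31.1 CPM in M1 medium and 20.8 CPM in control medium) and VWF (9.59 and 21.5 CPM) and PDGFRB (0.226 and 0.665 CPM) to lower ones. The part of these markers in the receptor differences was not tested.

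LNCaP cells in control medium already expressed every one of the 10 chains. Levels of different genes are compared per kilobase of transcript (CPM per kb), with the length of the transcript that stands for the gene. In control medium IFNGR2 was highest at 18.3 ± 1.18 CPM per kb (SD, n = 3 for each value here). IL6R (14.7 ± 0.960), IFNAR2 (14.5 ± 0.160), IFNGR1 (12.6 ± 0.434) and IFNAR1 (12.4 ± 1.02) followed. Next came IL1R1 at 8.09 ± 0.766 and IL6ST at 6.01 ± 0.622 CPM per kb. The lowest were LIFR (2.39 ± 0.184), IL1RAP (2.08 ± 0.244) and OSMR (1.79 ± 0.194). Libraries of neighbours in this order overlapped for IL6R and IFNAR2, for IFNGR1 and IFNAR1, for LIFR and IL1RAP, and for IL1RAP and OSMR. Among 15395 tested genes with a known length, the level of IFNGR2 was at percentile 69.5 in control medium and that of OSMR at percentile 26.2.

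The order of the chains was different in M1 medium. IFNGR1 led at 175 ± 23.5 CPM per kb, which is percentile 97.4 of the tested genes in M1 medium against percentile 61.1 in control medium. IFNGR2 followed at 46.4 ± 1.85 CPM per kb, then IFNAR2 (27.4 ± 1.67), IFNAR1 (21.7 ± 0.0771), IL6ST (20.1 ± 1.44) and IL6R (20.05 ± 0.574). OSMR stood at 7.06 ± 0.157 CPM per kb, above IL1R1 at 3.99 ± 0.112, LIFR at 2.21 ± 0.106 and IL1RAP at 1.81 ± 0.134. In M1 medium the libraries of IFNAR1 and IL6ST overlapped, as did those of IL6ST and IL6R. The place of IFNAR2 rests on a transcript of 1389 bases. With the same counts over the length of its longest transcript, 2899 bases, it would stand at 13.1 CPM per kb in M1 medium and 6.96 in control medium. That longest transcript itself had fewer counts, 32.1 CPM in M1 medium and 17.6 CPM in control medium, so its own level per kb would be lower still. Where transcripts tied in their counts, the longest was used. The shortest tied one had 2574 bases in place of 9057 for IL6ST and 1858 in place of 5143 for IL1R1. For IL6R it had 3217 in place of 5914, and for IL1RAP 2244 in place of 5413. Shorter lengths would raise the levels per kb of these chains, so the order in both media depends on this choice.

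**Figure D1:**
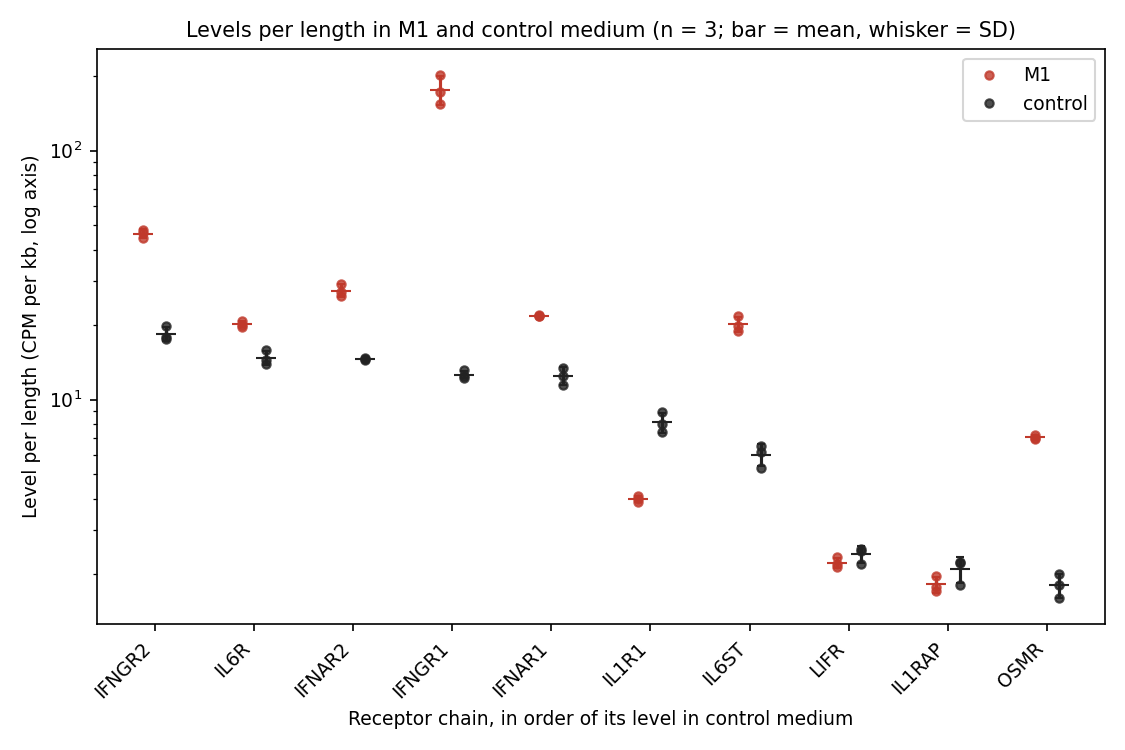
Level per length of each receptor chain (CPM per kb, log axis) in M1 medium (red) and control medium (black). Points are libraries, bars are means and whiskers are SD (n = 3), and genes run from the highest to the lowest in control medium. IFNGR1 in M1 medium, at 175 CPM per kb, lies above every other chain.

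M1 medium changed most of the receptor chains. Of the 10, 7 were higher than in control medium (both interferon gamma chains, both type I interferon chains, IL6R, IL6ST and OSMR), 1 was lower (IL1R1), and LIFR and IL1RAP did not pass the test. These calls use edgeR's quasi-likelihood test with an adjusted p under 0.05. Across all 17037 genes tested, 64.8% were called in this comparison, 32.9% as higher and 31.9% as lower, so a call by itself sets a chain little apart. By at least 2-fold, 4 chains were higher (IFNGR1, IFNGR2, IL6ST and OSMR) and IL1R1 was lower, beside 10.3% higher and 7.91% lower of all genes. The median log2 fold change was 0.86 over the 10 chains and -0.00 over all tested genes. The M1 and control libraries did not overlap for 8 chains, and did not overlap for 66.2% of all genes. In bulk RNA, a change in the share of cells that express a gene and a change in RNA per cell cannot be told apart.

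IFNGR1, the chain that binds interferon gamma, had the largest difference of the 10. It stood at 369, 428 and 329 CPM in the M1 libraries, against 26.2, 28.0 and 26.7 CPM in the control libraries. Every M1 library was far above every control library. IFNGR1 was 13.9-fold higher in M1 medium (3.80 ± 0.09 SE on the log2 scale, with an edgeR adjusted p of 1.39e-20), and 315 of the 17037 tested genes had a higher log2 fold change. IFNGR2, its signalling partner, had 98.5, 107 and 104 CPM in M1 medium, against 39.7, 38.8 and 43.7 CPM in control medium. Its libraries also fell into separate ranges. The rise of IFNGR2 was 2.53-fold (log2 fold change 1.34 ± 0.06, edgeR adjusted p = 2.18e-15).

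The type I interferon chains rose by less than 2-fold. IFNAR1 stood at 134, 133 and 133 CPM in M1 medium, against 76.5, 70.0 and 82.5 CPM in control medium. It was 1.75-fold higher in M1 medium (log2 fold change 0.80 ± 0.07, edgeR adjusted p = 2.96e-10), and its M1 libraries lay closely together above all control libraries. IFNAR2, the chain with the higher affinity for type I interferons, had 36.0, 37.5 and 40.6 CPM in M1 medium, against 20.3, 20.4 and 19.9 CPM in control medium. These ranges did not overlap either, and the rise was 1.88-fold (0.91 ± 0.06, edgeR adjusted p = 1.19e-11).

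In the IL-6 family, the shared chain and the oncostatin M chain rose most. IL6ST stood at 179, 196 and 171 CPM in M1 medium, against 56.0, 48.2 and 59.2 CPM in control medium, without overlap. The difference was 3.34-fold (log2 fold change 1.74 ± 0.08, edgeR adjusted p = 2.15e-15). OSMR had 38.4, 38.9 and 40.1 CPM in M1 medium, against 8.84, 9.95 and 10.99 CPM in control medium. Each M1 library thus held more than any control library, and the rise was 3.94-fold (1.98 ± 0.09, edgeR adjusted p = 7.22e-15). IL6R, the chain that gives IL-6 its specificity, had 116, 118 and 122 CPM in M1 medium, against 85.2, 93.3 and 82.4 CPM in control medium. It rose 1.36-fold (0.45 ± 0.05, edgeR adjusted p = 1.20e-07), the smallest rise among the 7 chains that were called higher. LIFR had 21.5, 23.5 and 21.96 CPM in M1 medium and 25.4, 21.9 and 24.9 CPM in control medium, and the groups overlapped. Its log2 fold change was -0.11 (95% interval -0.27 to 0.04, edgeR adjusted p = 0.202). With the length trend removed, LIFR was called lower (log2 fold change -0.22, edgeR adjusted p = 0.00709).

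The IL-1 receptor chains did not rise. IL1R1, which binds IL-1, had 21.1, 20.4 and 20.003 CPM in M1 medium, against 40.9, 38.1 and 45.9 CPM in control medium. All M1 libraries were below all control libraries, and IL1R1 was 2.03-fold lower (log2 fold change -1.02 ± 0.09, edgeR adjusted p = 5.21e-10). IL1RAP, the accessory chain, had 10.6, 9.54 and 9.22 CPM in M1 medium and 12.1, 9.74 and 11.97 CPM in control medium, with 1 control library inside the M1 range. Its log2 fold change of -0.20 did not pass (edgeR adjusted p = 0.0725). Without control replicate 2 it passed at an edgeR adjusted p of 0.0135, and without M1 replicate 1 at 0.0425.

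**Figure D2:**
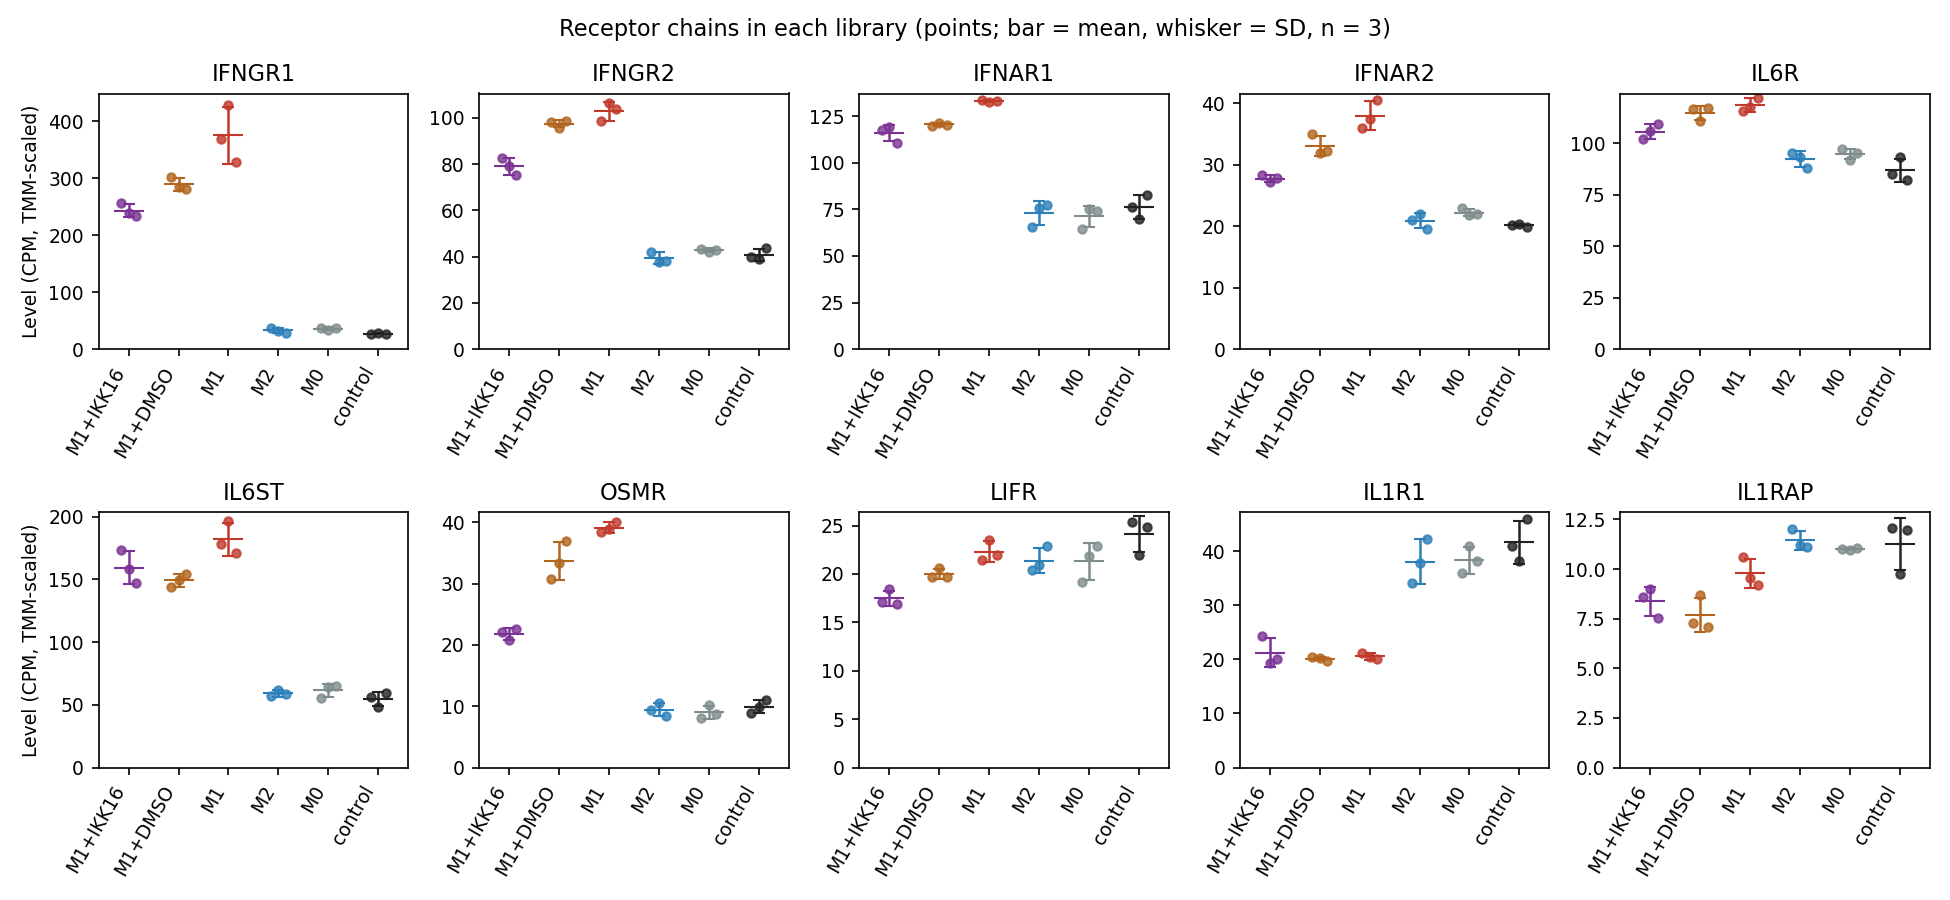
Level of the 10 receptor chains (CPM, scaled between libraries, axes from 0) in each library of the 6 groups. Points are libraries, bars are means and whiskers are SD (n = 3). The 3 groups with M1 medium stand above the others for IFNGR1, IFNGR2, IFNAR1, IFNAR2, IL6R, IL6ST and OSMR and below them for IL1R1.

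The same chains in M1 medium differed from those in M2 and M0 medium, which share the macrophage origin but not the M1 polarisation. Against M2 medium, 9 of 10 chains were called, beside 67.5% of all genes. The same 7 chains were higher (34.3% of all genes) and IL1R1 and IL1RAP were lower (33.2%), and 9 chains had groups that did not overlap (69.5%). Against M0 medium, 8 were called, beside 67.2% of all genes. Of these 7 were higher (34.2% of all genes) and IL1R1 was lower (33%), and 9 chains had groups that did not overlap (69.8%). These comparisons share the M1 libraries with the one against control and are not independent of it. IFNGR1 was 11.5-fold higher in M1 than in M2 medium (log2 fold change 3.52 ± 0.09, edgeR adjusted p = 4.72e-20) and 10.4-fold higher than in M0 medium (3.38 ± 0.09, edgeR adjusted p = 9.43e-20). OSMR was 4.12-fold higher in M1 than in M2 medium and 4.35-fold higher than in M0 medium. IL6ST was 3.08-fold higher than in M2 and 2.95-fold higher than in M0 medium, and IFNGR2 2.62-fold and 2.40-fold. IL1R1 was 1.85-fold lower in M1 than in M2 medium (-0.89 ± 0.09, edgeR adjusted p = 6.04e-09) and 1.86-fold lower than in M0 medium. The call of IL1RAP against M2 medium (log2 fold change -0.23, edgeR adjusted p = 0.0463) was lost in several fits, among them the fits without M1 replicate 2 or 3 and without M2 replicate 1 or 2, with adjusted p of 0.0635 to 0.151.

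M2 and M0 medium left the receptor chains close to control medium, with the exception of IFNGR1. With M2 medium 1 of 10 chains was called, beside 8.77% of all genes, and with M0 medium 1 of 10, beside 11.7%. IFNGR1 had 36.9, 32.0 and 29.01 CPM in M2 medium and 37.3, 33.7 and 37.0 CPM in M0 medium, against 26.2, 28.0 and 26.7 CPM in control medium. All libraries of both macrophage media were above all control libraries. In M0 medium IFNGR1 was 1.34-fold higher than in control (log2 fold change 0.42 ± 0.09, edgeR adjusted p = 0.0100), a call that was lost without control replicate 1 (adjusted p = 0.0676) and without M0 replicate 1 (0.0616). In M2 medium it was 1.21-fold higher (0.28 ± 0.09, edgeR adjusted p = 0.0496), at the edge of the threshold. This call was lost without control replicate 1 or 3 and without M2 replicate 1 or 2, with adjusted p of 0.104 to 0.337, and also with only these 2 groups in the fit (0.106) and with the longest transcript (0.0506). The groups did not overlap for this chain alone in M2 medium (22.9% of all genes) and for IFNGR1 and IFNAR2 in M0 medium (27.3%).

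None of the other 9 chains was called in these media. In M2 medium their 95% intervals reached from -0.33 (LIFR) to 0.28 (IL6ST) on the log2 scale, and in M0 medium from -0.36 (OSMR) to 0.34 (IL6ST). In M0 medium a call was gained by IL6R (edgeR adjusted p = 0.0294) and LIFR (0.0483) when control replicate 2 was left out. Over all tested genes with a known length, longer transcripts tended to lower fold changes over control medium in M0 and M2 medium. Spearman's correlation of log2 fold change with length was -0.33 in M0, -0.29 in M2 and 0.07 in M1 medium. With the trend of fold change with transcript length removed, IL6ST (log2 fold change 0.30, edgeR adjusted p = 0.00999) and IL6R (0.21, 0.0411) were also called higher in M0 medium. OSMR, which rose in M1 medium, had 9.45 ± 1.05 CPM in M2 medium and 8.99 ± 1.11 CPM in M0 medium, against 9.93 ± 1.07 CPM in control medium (SD, n = 3). IL1R1, which fell in M1 medium, had 38.0 ± 4.102 CPM in M2 medium and 38.3 ± 2.48 CPM in M0 medium, against 41.6 ± 3.94 CPM in control medium.

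**Figure D3:**
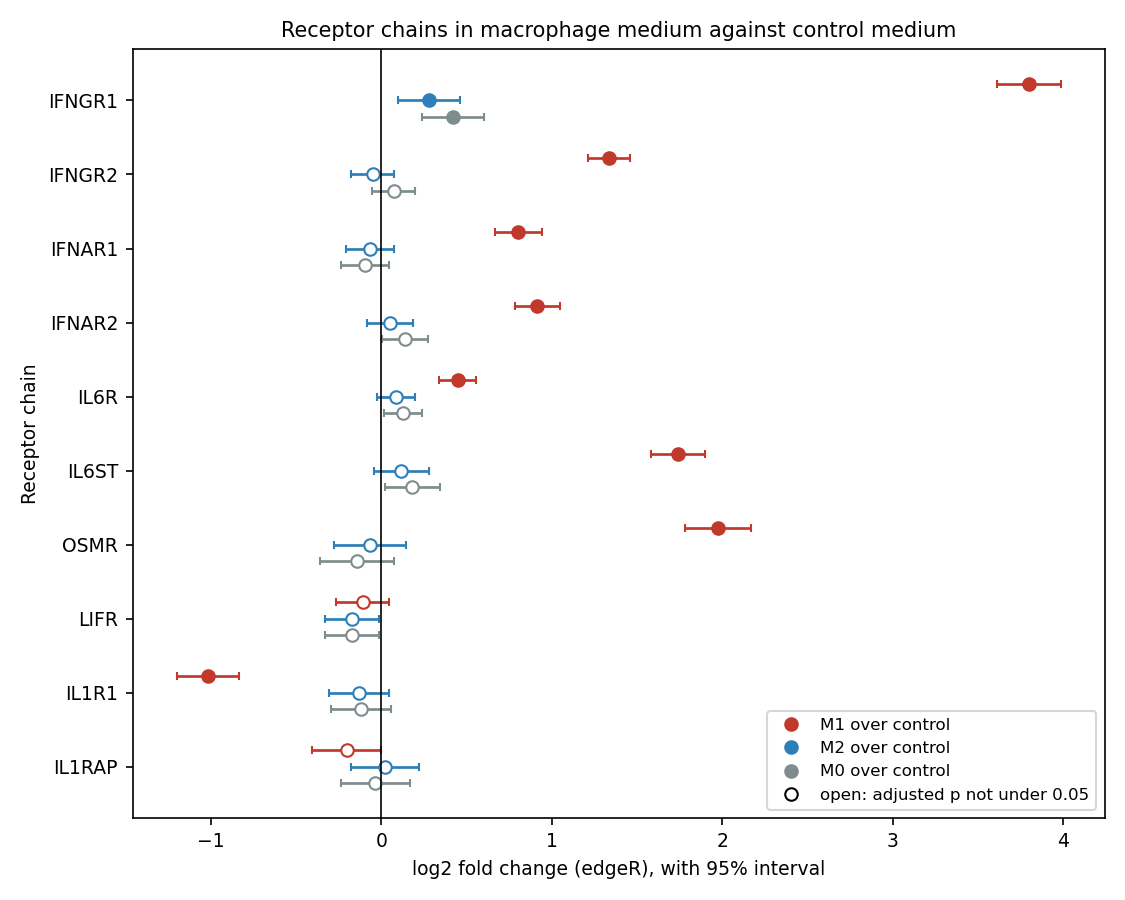
log2 fold change of each receptor chain in M1 (red), M2 (blue) and M0 (grey) medium over control medium, with 95% intervals from edgeR. Filled points passed an adjusted p under 0.05. The M1 values run from -1.02 for IL1R1 to 3.80 for IFNGR1, while those of M2 and M0 medium stay between -0.17 and 0.42.

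IKK16 in M1 medium lowered part of the receptor chains without returning them to the level of control medium. Against M1 medium with DMSO, 4 of 10 chains were called, all lower (OSMR, IFNGR2, IFNAR2 and IFNGR1), beside 27.3% of all genes called and 12.9% called lower. None of the 4 was lower by 2-fold, beside 1.63% of all genes, and no chain was called higher (14.4%). OSMR fell most, to 22.1, 20.8 and 22.5 CPM with IKK16, against 30.7, 33.3 and 36.9 CPM with DMSO. Its libraries did not overlap, and OSMR was 1.54-fold lower (log2 fold change -0.63 ± 0.09, edgeR adjusted p = 1.11e-05). IFNGR2 had 82.8, 79.2 and 75.2 CPM with IKK16, against 98.1, 95.8 and 98.9 CPM with DMSO, and was 1.23-fold lower (-0.30 ± 0.06, edgeR adjusted p = 0.000378). IFNAR2 had 28.3, 27.1 and 27.8 CPM with IKK16, against 35.0, 31.9 and 32.3 CPM with DMSO, and was 1.19-fold lower (-0.25 ± 0.06, edgeR adjusted p = 0.00495). In both genes every library with IKK16 was below every library with DMSO.

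IFNGR1, the chain with the largest rise in M1 medium, changed only a little with IKK16. It had 256, 239.7 and 233 CPM with IKK16, against 301, 285 and 281 CPM with DMSO, and was 1.19-fold lower (log2 fold change -0.25 ± 0.08, edgeR adjusted p = 0.0194). The call was lost without IKK16 replicate 2 (adjusted p = 0.0675), without IKK16 replicate 3 (0.0725) and without DMSO replicate 1 (0.0848). IL6ST was at 159 ± 13.2 CPM with IKK16 and 149 ± 5.21 CPM with DMSO (SD, n = 3), with a log2 fold change of 0.09 (95% interval -0.06 to 0.25, edgeR adjusted p = 0.374). OSMR, its partner, was thus called lower and IL6ST was not. IL1R1 had 21.3 ± 2.64 CPM with IKK16 and 20.1 ± 0.351 CPM with DMSO (log2 fold change 0.08, 95% interval -0.11 to 0.27). IFNAR1 (-0.06), IL6R (-0.12), LIFR (-0.20) and IL1RAP (0.11) did not pass either. The libraries with IKK16 and DMSO did not overlap for 7 chains, beside 44.5% of all genes.

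Against control medium, all 10 chains were called in M1 medium with IKK16, beside 52.5% of all genes. The control group had no DMSO, so this comparison also holds the effect of the solvent. The same 7 chains as in M1 medium alone were higher (27.1% of all genes), and LIFR, IL1R1 and IL1RAP were lower (25.4%). IFNGR1 was still 9.02-fold higher than in control medium (log2 fold change 3.17 ± 0.09, edgeR adjusted p = 6.12e-19), IL6ST 2.93-fold and OSMR 2.19-fold. LIFR had 17.1, 18.4 and 16.9 CPM with IKK16, against 25.4, 21.9 and 24.9 CPM in control medium, and was 1.38-fold lower (-0.46 ± 0.08, edgeR adjusted p = 2.61e-05). IL1RAP had 8.57, 8.99 and 7.54 CPM with IKK16, against 12.1, 9.74 and 11.97 CPM in control medium, and was 1.35-fold lower (-0.43 ± 0.10, edgeR adjusted p = 0.00103). The groups did not overlap for any of the 10 chains, beside 56.7% of all genes.

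The solvent itself went along with small differences. M1 medium with DMSO differed from M1 medium alone in 2 of 10 chains, both lower, beside 4.25% of all genes called and 2.03% called lower. IFNGR1 had 301, 285 and 281 CPM with DMSO, against 369, 428 and 329 CPM without (log2 fold change -0.38 ± 0.08, edgeR adjusted p = 0.00975). IL6ST had 144, 149 and 154 CPM with DMSO, against 179, 196 and 171 CPM without (-0.29 ± 0.07, edgeR adjusted p = 0.0305). The highest of the M1 libraries for both genes was M1 replicate 2. Without it the adjusted p was 0.114 for IFNGR1 and 0.226 for IL6ST. The IFNGR1 call was also lost without DMSO replicate 2 (0.0543) or 3 (0.0504), and the IL6ST call without M1 replicate 1 (0.0904) and without DMSO replicate 1 (0.140), 2 (0.0929) or 3 (0.0652). IL1RAP, which was not called (adjusted p = 0.0587), passed without M1 replicate 3 (edgeR adjusted p = 0.0431). The groups did not overlap for 7 chains, beside 29.3% of all genes.

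**Figure D4:**
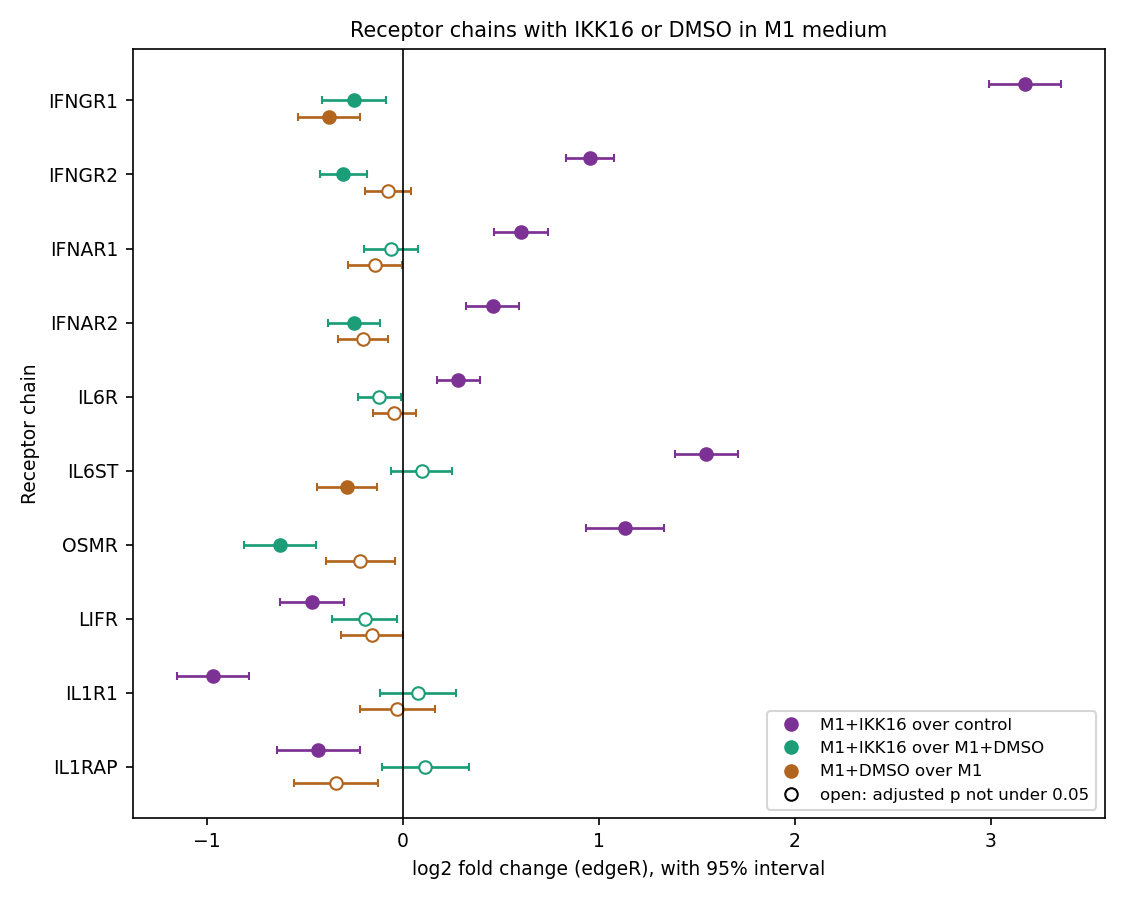
log2 fold change of each receptor chain in M1 medium with IKK16 over control medium (purple), with IKK16 over DMSO (green) and with DMSO over M1 medium alone (brown), with 95% intervals from edgeR. Filled points passed an adjusted p under 0.05. With IKK16, IFNGR1 lies at 3.17 over control and at -0.25 over DMSO, and OSMR at 1.13 and -0.63.

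The balance between chains that work in pairs is given as the ratio of their CPM per kb, with no test. Each ratio rests on the transcript lengths used. IFNGR1 over IFNGR2 was 3.19 ± 0.0422 with IKK16, 3.07 ± 0.122 with DMSO, 3.78 ± 0.453 in M1, 0.860 ± 0.0622 in M2, 0.872 ± 0.0366 in M0 and 0.689 ± 0.0578 in control medium (SD, n = 3). IFNGR1 RNA was thus the less abundant of the pair in control medium and the more abundant in every group with M1 medium. IL6ST over IL6R was 1.00 ± 0.0870 in M1 medium and 0.412 ± 0.0674 in control medium. OSMR over LIFR, the alternative partners of IL6ST, was 2.28 ± 0.195 with IKK16, 3.07 ± 0.301 with DMSO, 3.20 ± 0.162 in M1 medium and 0.755 ± 0.105 in control medium. In control medium LIFR RNA was therefore the more abundant of these 2, and in M1 medium OSMR was. IL1R1 over IL1RAP was 2.21 ± 0.0998 in M1 medium and 3.90 ± 0.297 in control medium. IFNAR1 over IFNAR2 was 0.795 ± 0.0496 in M1 medium and 0.856 ± 0.0793 in control medium, with overlapping libraries.

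The RefSeq transcripts of a receptor gene share most of their reads, and 1 transcript stands for each gene. The other transcripts of IFNGR1, IFNAR2, LIFR and IL1RAP gave ratios of M1 over control medium close to that of the one used, for example 14.1 and 13.9 for IFNGR1. For IL6R the transcript used had a ratio of 1.36, while NM_001206866, of 1496 bases in place of 5914, had 52.9 ± 2.10 CPM in M1 medium and 50.5 ± 6.13 CPM in control medium, a ratio of 1.05. For OSMR the long transcript had a ratio of 3.94, and NM_001168355, of 1740 bases in place of 5539, had 12.5 ± 0.383 CPM in M1 medium and 5.67 ± 0.540 CPM in control medium, a ratio of 2.21. These ratios were not tested. Whether counting used the strand is not given in the sources used here, so reads of overlapping genes cannot be told apart. IFNGR2 overlaps TMEM50B, a membrane protein gene, which had 106 ± 6.86 CPM in M1 medium and 72.4 ± 3.02 CPM in control medium. OSMR overlaps RICTOR, a subunit of the mTORC2 kinase complex, at 25.0 ± 3.62 CPM in M1 medium and 16.99 ± 2.20 CPM in control medium. LIFR overlaps LIFR-AS1 (1.88 ± 0.134 CPM in M1 medium and 4.03 ± 0.199 CPM in control medium), and IL6R and IFNAR2 overlap noncoding genes at 3.30 CPM or less in M1 medium.

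Related receptor chains outside the 10 were mostly low. Of 8 other interferon and IL-10 family chains, 3 passed the filter on low counts, 1 higher and 1 lower in M1 medium, which was IL20RA at 0.109 CPM against 0.527 CPM. IL10RB, which serves interferon lambda and IL-10 family receptors, rose 1.48-fold to 26.7 ± 0.755 CPM in M1 medium, against 18.001 ± 1.19 CPM in control medium (edgeR adjusted p = 3.26e-06). IL20RA and IFNLR1 are named here after their values were seen. IFNLR1, the partner of IL10RB for interferon lambda, had 0.0219 CPM in M1 medium and 0.0771 CPM in control medium, under the floor of 3 counts. Of 10 other IL-6 and IL-12 family chains, 4 were tested, 1 higher and 2 lower. LEPR, the leptin receptor, rose 1.90-fold (43.0 ± 4.49 CPM in M1 medium, against 22.6 ± 1.59 CPM in control medium), and IL11RA, the IL-11 receptor, fell 2.11-fold (3.35 ± 0.265 CPM, against 7.06 ± 0.425 CPM). Of 9 other IL-1 family chains, 6 were tested, 3 higher and 1 lower. IL18BP, a secreted decoy that binds IL-18, rose 8.31-fold to 24.5 ± 1.88 CPM in M1 medium, against 2.96 ± 0.478 CPM in control medium. With IKK16 it was 4.097-fold lower than with DMSO (4.68 ± 0.364 CPM, against 19.2 ± 2.24 CPM, edgeR adjusted p = 4.65e-11). SIGIRR, an inhibitory receptor of the family, rose 1.38-fold in M1 medium, IL1RAPL1 rose 1.496-fold and IL1RAPL2 fell 1.34-fold.

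Genes of the intracellular relays of these receptors were mostly higher in M1 medium. Of 15 JAK-STAT genes, 14 were tested, 10 higher and 1 lower in M1 medium, with a median log2 fold change of 0.78, beside 32.9% higher, 31.9% lower and a median of -0.00 for all tested genes. STAT3, the main STAT of IL-6 signalling, rose 2.86-fold to 673 ± 19.3 CPM in M1 medium, against 235 ± 9.45 CPM in control medium (edgeR adjusted p = 1.17e-17). IRF9, the DNA-binding subunit of the type I interferon complex, rose 5.41-fold (27.1 ± 1.34 CPM, against 5.00 ± 0.647 CPM). STAT5A rose 2.22-fold and STAT5B fell 1.31-fold, and reads of these similar neighbours may be split between them. Chosen after its values were seen, JAK1, the kinase that binds IFNGR1, IFNAR2 and IL6ST, had 7.30 ± 0.817 CPM in M1 medium and 3.58 ± 0.0183 CPM in control medium, a 2.04-fold rise (edgeR adjusted p = 1.72e-07). With IKK16, 6 of the 14 were lower than with DMSO and none was called higher, beside 12.9% and 14.4% of all genes, and STAT3 was 1.40-fold and IRF9 1.51-fold lower.

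Of 17 IL-1 receptor adaptors and kinases, 16 were tested, 10 higher and 2 lower in M1 medium, with a median log2 fold change of 0.43, beside the same 32.9% and 31.9% of all genes. IRAK2, a kinase of the IL-1 receptor complex, rose 12.4-fold to 57.2 ± 3.49 CPM in M1 medium, against 4.61 ± 0.447 CPM in control medium (edgeR adjusted p = 1.93e-20). The IκB kinase genes IKBKG (2.65-fold) and IKBKB (1.99-fold) rose as well, and the reads of IKBKG may be shared with its near-identical pseudogene. TAB1 fell 1.24-fold and PELI3 fell 1.29-fold. With IKK16, 5 of the 16 were lower than with DMSO (MYD88, TRAF6, IKBKB, IKBKG and PELI2) and none was called higher, beside 12.9% and 14.4% of all genes. IRAK2 did not pass with IKK16 (53.4 ± 1.96 CPM, against 55.9 ± 2.26 CPM with DMSO). 

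Genes that limit or shed these receptors were all tested: of 13, 8 were higher and 3 lower in M1 medium (32.9% and 31.9% of all genes), with a median log2 fold change of 0.31. SOCS3, which blocks IL6ST signalling, had 2.43 ± 0.538 CPM in M1 medium, against 0.0118 ± 0.0204 CPM in control medium. SOCS1, which blocks interferon receptor signalling, rose 4.04-fold to 1.88 ± 0.662 CPM in M1 medium, against 0.455 ± 0.209 CPM in control medium. BACE2, a membrane protease, rose 34.2-fold (60.6 ± 3.43 CPM, against 1.76 ± 0.304 CPM). SOCS2 fell 3.12-fold, BACE1 fell 1.84-fold, and USP18, which restrains IFNAR2, fell 2.16-fold (6.43 ± 0.676 CPM, against 13.9 ± 0.274 CPM). Chosen after its values were seen, ADAM17, a protease that cleaves IL6R from the cell surface, rose 2.12-fold (51.6 ± 1.65 CPM, against 24.4 ± 0.319 CPM). With IKK16, 2 of the 13 were lower than with DMSO (SOCS3 4.13-fold and BACE2 2.82-fold), beside 12.9% of all genes. Another 2 were higher (USP18 1.23-fold and PTPN2 1.17-fold), beside 14.4%.

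LNCaP cells made little RNA for the ligands themselves. None of 13 interferon genes passed the filter, and 9 had 0 counts in all 18 libraries, IFNG among them. IFNB1 had 0.0106 CPM and IFNL1 0.0544 CPM in M1 medium, and both had 0 CPM in control medium, all under the floor. Interferon alpha genes are near-identical copies, so reads shared between them are uncertain. IL6 also had 0 CPM in each group. Of the IL-6 family ligands, 5 of 10 were tested, 2 higher (LIF and EBI3) and 1 lower (IL11), with EBI3 and IL11 under 1 CPM and named after their values were seen. LIF, a ligand of LIFR, rose 1.99-fold to 8.01 ± 0.707 CPM in M1 medium, against 4.01 ± 0.648 CPM in control medium. Of 11 IL-1 family genes, 4 were tested and 2 were higher. IL1RN, the natural antagonist of IL1R1, rose 1.297-fold (10.8 ± 0.931 CPM, against 8.35 ± 0.483 CPM), and IL36RN, the antagonist of the IL-36 receptor, rose 1.41-fold.

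Most of the listed target genes of the receptors were higher in M1 medium, in each of 4 short lists. Of interferon gamma targets, 11 of 12 were tested and all 11 were higher (median log2 fold change 5.42), beside 32.9% higher among all genes. HLA-DRA, an antigen-presenting molecule, had 148 ± 18.8 CPM in M1 medium, against 0.0441 ± 0.0384 CPM in control medium. IDO1, a tryptophan-degrading enzyme, had 5.73 ± 1.27 CPM, against 0.0206 ± 0.0356 CPM, and ICAM1, an adhesion molecule, 23.5 ± 1.26 CPM, against 0.0764 ± 0.0668 CPM. Of 15 type I interferon targets, all were tested and 12 were higher (median 2.77). OAS2 had 4.77 ± 0.313 CPM in M1 medium, against 0.0653 ± 0.0320 CPM in control medium, IFIT3 rose 16.7-fold to 19.1 ± 1.39 CPM, and IFI27 rose 28.4-fold to 10.4 ± 0.797 CPM. Several genes of the 2 interferon lists answer to both kinds of interferon.

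Targets of gp130 and STAT3 were tested for 11 of 14, with 10 higher and 1 lower (median 3.39, or 2.82 with genes absent from control set at the floor). SERPINA3, an acute phase protease inhibitor, had 533 ± 44.0 CPM in M1 medium, against 1.23 ± 0.475 CPM in control medium, and LBP had 2.98 ± 0.192 CPM, against 0.0977 ± 0.0265 CPM. PIM1, a kinase gene of the list, fell 1.86-fold. All 14 tested of 15 IL-1 and NF-kB targets were higher (median 5.97, or 5.52 with genes absent from control set at the floor). LCN2, an iron-binding secreted protein, had 457 ± 25.0 CPM in M1 medium, against 0.145 ± 0.0607 CPM in control medium. The chemokine CCL20 had 26.9 ± 2.57 CPM and the acute phase gene SAA2 had 26.7 ± 1.53 CPM in M1 medium, each against 0 CPM in control medium, and SAA2 may share reads with SAA1. Interferons, tumour necrosis factor and IL-1 share many of these targets, and several lists were drawn up with earlier results of these data known.

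With IKK16 the counts of higher and lower genes are given for each target list, beside 14.4% of all genes higher and 12.9% lower, and the lists were not tested against each other. Of the interferon gamma targets, 9 of 11 were lower than with DMSO and 1 was higher, and HLA-DRA was 2.93-fold lower (40.0 ± 0.542 CPM, against 117 ± 2.53 CPM). Of the type I interferon targets, 8 of 15 were higher and 2 lower. IFIT3 was 1.32-fold higher with IKK16 (20.3 ± 0.514 CPM, against 15.3 ± 0.652 CPM), and IFI27 was 1.53-fold lower. Of the gp130 and STAT3 targets, 8 of 11 were lower and 1 higher, and SERPINA3 was 19.0-fold lower (18.9 ± 1.03 CPM, against 359 ± 23.9 CPM, edgeR adjusted p = 3.81e-19). Of the IL-1 and NF-kB targets, 8 of 14 were lower and 2 higher, while LCN2 (386 ± 18.1 CPM with IKK16, against 408 ± 18.8 CPM with DMSO) and CCL20 did not pass. In M2 medium 2 of 11 interferon gamma targets and 3 of 14 IL-1 and NF-kB targets were higher than in control medium, and in M0 medium 4 of 11 and 6 of 14. In each of these 2 media, 2 of 15 type I interferon targets and 1 of 11 gp130 and STAT3 targets were higher. The share called higher among all genes was 5.28% in M2 medium and 6.67% in M0 medium.

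**Figure D5:**
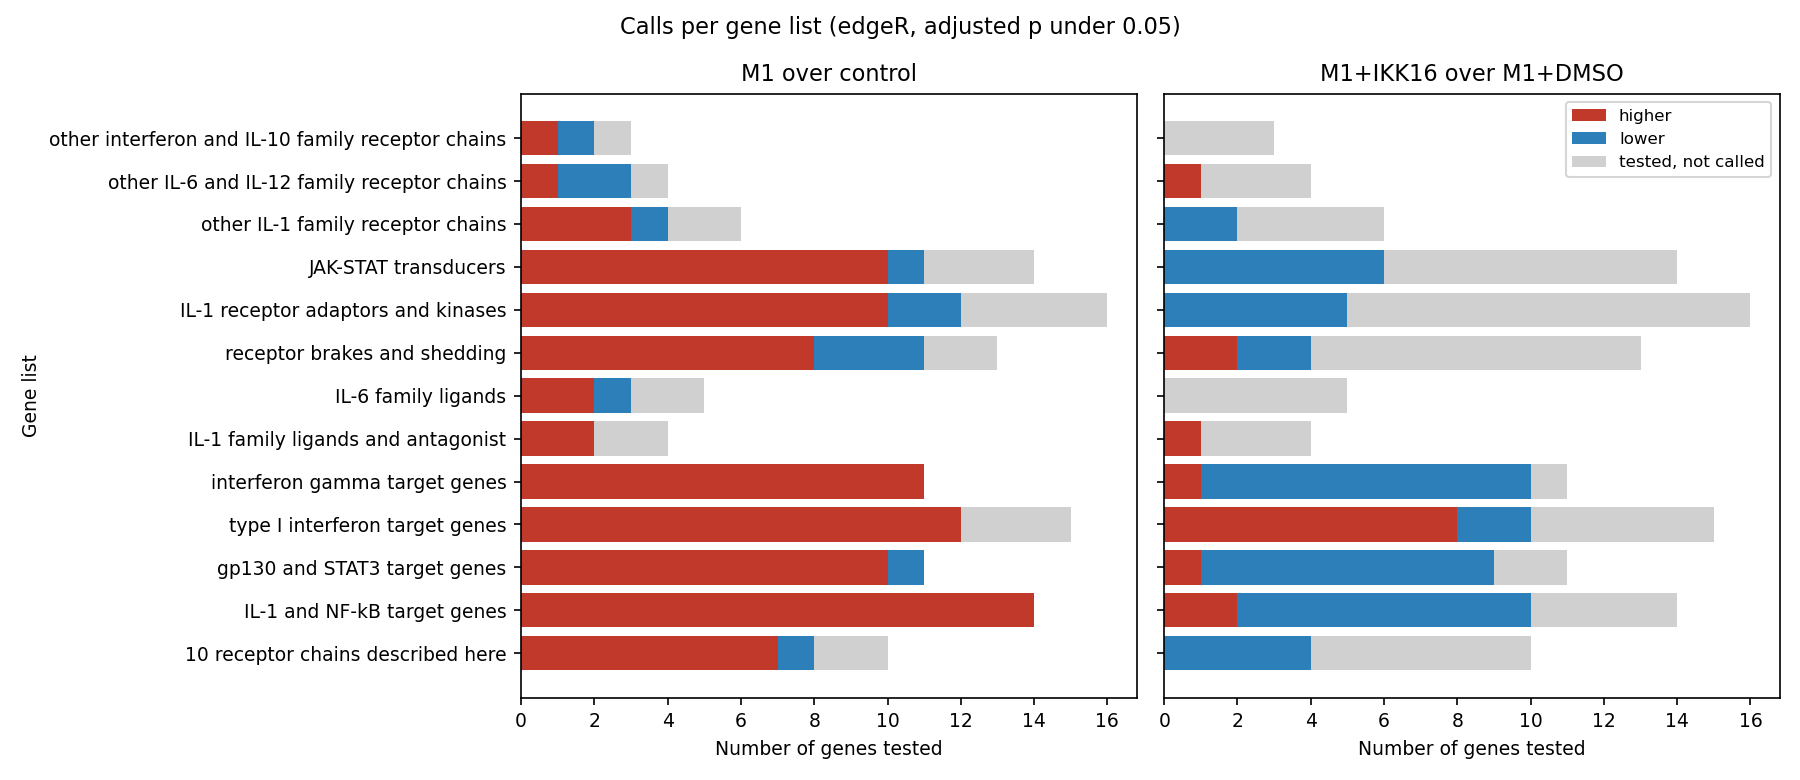
Number of tested genes of each list that were higher (red), lower (blue) or not called (grey) in M1 over control medium (left) and with IKK16 over DMSO in M1 medium (right), by edgeR at an adjusted p under 0.05. All 11 interferon gamma targets tested are higher in M1 medium, and 9 of the 11 are lower with IKK16.

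Across the 18 libraries, log2 levels of the chains were related to each other as the M1 medium sorted them, so the values describe the same contrast again. Pearson's r was 0.99 between IFNGR1 and IFNGR2, 0.99 between IFNGR1 and IL6ST, 0.97 between IFNGR1 and OSMR and -0.98 between IFNGR1 and IL1R1. LIFR was less closely related to IFNGR1 (-0.46). Among 15344 genes, the ones most like IFNGR1 were GOLPH3L, at 155 CPM in M1 medium and 64.2 CPM in control medium, and CFAP69 (r of 0.997 for each). For IFNGR2 they were SAT1 and ATG7, for IL6ST they were SRP54 and ZC3H12C, for OSMR they were TRIB1 and SGK1, and for IL1R1 they were NRP1 and LOC101927078. At least 304 genes exceeded an r of 0.95 with each of these 5 chains, and 1191 did so with IFNGR1, so a high r does not single a gene out.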

How the data were processed

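For the 18 LNCaP libraries, the authors deposited 1 table with expected counts for each RefSeq transcript (multiples of 0.5, not normalised). The submitters' processing notes name hg38, Trimmomatic, BWA 0.7.17 and HOMER 4.10; which step each served, strand use and how multiply mapping reads were treated are not stated in these sources. Of 70507 transcripts, 69824 were named by RefSeq (GRCh38.p14), 349 by GENCODE and 334 (0.0883 to 0.109% of counts) not at all. Each of 28100 genes was represented by its most counted transcript, whose estimated counts were rounded. Transcript lengths came from GENCODE (89.2% of genes).

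edgeR 4.0.16 in R 4.3.3 was used with TMM scaling, filterByExpr (17037 genes tested, 11063 left out), 1 mean per group over all 18 libraries (coefficient of variation 0.0627) and the quasi-likelihood test, two-sided, with Benjamini-Hochberg adjustment over all tested genes in each of 8 comparisons. Tested on simulated data for M1 against control (15659 genes), it recovered 41 of 50 genes changed 1.5-fold and 49 of 50 changed 2-fold. The simulation used the same spread for every gene and changed far fewer genes than the 64.8% called in the data. It therefore cannot show how the fit performs with changes that broad. Replicates all differed by more than sampling noise. Levels are means ± SD. The receptor genes and lists were chosen with earlier results of these data known. From each list, up to 3 genes per direction with the largest called change in M1 against control and at least 1 CPM were named. Alternatives were DESeq2 1.42.0, its scaling, other filters, the longest transcript, removal of a transcript length trend, only the 2 groups compared, the replicate number as a block and each library left out.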

Additional observations from a re-analysis of the deposited data

How the results depend on the processing

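Of 1120 alternative values for the 10 chains in 8 comparisons, 1079 stayed on their side of the threshold, 25 lost and 15 gained the call. The remaining 1 was called with the reverse sign: LIFR in M1 against M0 medium, with a log2 fold change of -0.17 once the length trend was removed (0.06 without removal, not called). For that value the cause was not tested. Small changes that were not called could differ in sign between fits. LIFR in M1 against M2 medium, for example, had 0.06 in the main fit and -0.14 as its lowest alternative. In M1 medium against control, the 7 rises and the fall of IL1R1 were kept in all 14 alternatives, with IFNGR1 between 3.69 and 3.88, and LIFR and IL1RAP were also called lower with the length trend removed. Calls of IFNGR1 in M0 and M2 against control medium and with IKK16 against DMSO, of IL1RAP in M1 against M2 medium, and of IFNGR1 and IL6ST in DMSO against M1 medium were lost without single libraries. All genes called in M0 against control medium numbered 1996, but 790 with only those groups in the fit and 30 to 2731 with 1 library left out. For M2 against control medium there were 1494, but 199 with only those groups and 164 to 2656 with 1 library left out. For DMSO against M1 medium there were 724, but 1208 with the length trend removed, 1570 with only those groups, 1284 by DESeq2 and 71 to 1488 with 1 library left out. Receptor chains called in M0 against control medium numbered 1, but 3 with the length trend removed and 0 to 3 with 1 library left out. In M2 against control medium there was 1, but 0 with the longest transcript, 0 with only those groups and 0 to 1 with 1 library left out. For DMSO against M1 medium there were 2, but 4 by DESeq2 and 0 to 3 with 1 library left out. A group left with 1 library fewer was fitted with the spread shared by all groups. The causes of these shifts were not tested.

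Same-numbered replicates did not deviate together (correlations of -0.149 to 0.102). These correlations cannot show whether the numbers stand for paired cultures. With the replicate block, 11010 genes and 8 chains were called in M1 against control medium, 11353 and 8 in M1 against M0, 11437 and 8 in M1 against M2, 4556 and 4 in IKK16 against DMSO, and 8873 and 10 in IKK16 against control. It gave 1958 genes and 1 chain in M0 against control, 1451 and 1 in M2 against control and 587 and 2 in DMSO against M1. At these depths every receptor chain was far above the floor of 3 counts, so depth limits mainly the interferon and other ligand genes.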
